A study of Mus musculus with 6 samples.

Results

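The genes described here make, take up, store, move and export cholesterol. They were listed by function: 18 enzymes of cholesterol synthesis, 5 genes of the SREBP control system, 4 genes of the nuclear receptors and efflux pumps, and 5 genes of transport, storage and uptake. Of 33 listed symbols, 32 genes were found among the 26431 genes of the table, since Msmo1 stands there under its older name Sc4mol. All 32 were among the 14446 genes tested, so none was lost to the filter on low values.

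RNA sequencing compared tibialis anterior (TA) muscle between 3 uninjured mice and 3 mice at day 3 after injury, with 1 library per mouse. The labels give all of them as C57BL/6 females and name no engineered allele, with an age of 8 to 10 weeks in the injection protocol. The general methods of the study name males for work on adults where nothing else is said, so the sex rests on the labels. The injured muscle had received 50 µl of 10 µM cardiotoxin (CTX) from the cobra Naja mossambica mossambica, a toxin that destroys muscle fibres and is followed by regeneration, while the uninjured mice were untreated. Controls in the study could be mice of similar age from another litter.

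As background, cholesterol is built from acetyl-CoA through mevalonate, squalene and lanosterol, in steps that take place largely in the endoplasmic reticulum. When sterols in that membrane run low, SCAP carries the SREBP transcription factors to the Golgi, where they are cut to release the part that switches on synthesis and uptake genes; INSIG proteins hold the complex back when sterols are plentiful. In the other direction, oxysterols that accompany excess cholesterol bind the LXR nuclear receptors, which switch on the ABC pumps that load cholesterol onto lipoproteins. Macrophages that engulf dying cells receive much cholesterol from them, pass it from the lysosome with the NPC proteins, and store or export it.

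The promoters of 6 of these genes are shown because their genes differed in how far they changed: Hmgcs1 near the median gene, Sc4mol, Cyp51 and Srebf2 well above it, Sc5d with a change near 0, and Abca1 as the efflux pump. RefSeq gives, in build GRCm38.p6, the 250 bases before and the 50 bases after the start of 25 of the 32 genes. Each is written 5′ to 3′ in the sense of its gene, and capitals mark the motif letters searched on both strands: TCACNCCAC, the core of a sterol regulatory element that SREBP binds; CCAAT, bound by NF-Y; CACGTG, an E-box; and DR4, a pair of AGGTCA half-sites 4 bases apart, bound by LXR with RXR. None of the capitals in these 6 overlap.
Hmgcs1 (chr13:119690101-119690400, plus strand): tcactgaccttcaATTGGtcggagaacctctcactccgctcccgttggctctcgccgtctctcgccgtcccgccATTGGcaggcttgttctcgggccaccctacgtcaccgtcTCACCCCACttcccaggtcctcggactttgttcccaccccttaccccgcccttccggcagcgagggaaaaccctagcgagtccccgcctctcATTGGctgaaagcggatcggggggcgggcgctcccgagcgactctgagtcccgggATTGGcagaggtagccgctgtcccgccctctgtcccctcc
Cyp51 (chr5:4104648-4104947, minus strand): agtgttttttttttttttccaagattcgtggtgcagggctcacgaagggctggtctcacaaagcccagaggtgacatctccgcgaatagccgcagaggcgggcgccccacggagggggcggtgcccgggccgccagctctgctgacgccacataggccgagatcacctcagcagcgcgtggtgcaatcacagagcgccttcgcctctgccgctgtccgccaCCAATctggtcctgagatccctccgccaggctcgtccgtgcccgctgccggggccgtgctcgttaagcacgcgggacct
Sc4mol (chr8:64733529-64733828, minus strand): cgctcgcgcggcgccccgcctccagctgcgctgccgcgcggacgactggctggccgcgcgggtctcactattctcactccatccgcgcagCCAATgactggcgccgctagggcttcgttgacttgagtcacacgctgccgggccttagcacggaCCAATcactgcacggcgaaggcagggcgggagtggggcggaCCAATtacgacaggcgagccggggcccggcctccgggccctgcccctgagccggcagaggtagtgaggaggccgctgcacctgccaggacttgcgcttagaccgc
Sc5d (chr9:42264251-42264550, minus strand): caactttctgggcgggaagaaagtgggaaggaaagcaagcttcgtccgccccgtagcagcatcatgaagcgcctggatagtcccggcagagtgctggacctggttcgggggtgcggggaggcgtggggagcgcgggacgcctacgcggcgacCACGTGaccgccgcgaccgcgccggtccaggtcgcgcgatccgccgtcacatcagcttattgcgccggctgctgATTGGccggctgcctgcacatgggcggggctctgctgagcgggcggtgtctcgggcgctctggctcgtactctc
Srebf2 (chr15:82147019-82147318, plus strand): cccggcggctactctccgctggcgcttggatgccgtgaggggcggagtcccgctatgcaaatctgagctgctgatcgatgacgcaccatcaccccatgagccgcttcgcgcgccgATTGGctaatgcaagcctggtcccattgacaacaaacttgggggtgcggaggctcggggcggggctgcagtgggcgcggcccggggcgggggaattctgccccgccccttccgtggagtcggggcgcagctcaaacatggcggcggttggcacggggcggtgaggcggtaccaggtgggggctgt
Abca1 (chr4:53159846-53160145, minus strand): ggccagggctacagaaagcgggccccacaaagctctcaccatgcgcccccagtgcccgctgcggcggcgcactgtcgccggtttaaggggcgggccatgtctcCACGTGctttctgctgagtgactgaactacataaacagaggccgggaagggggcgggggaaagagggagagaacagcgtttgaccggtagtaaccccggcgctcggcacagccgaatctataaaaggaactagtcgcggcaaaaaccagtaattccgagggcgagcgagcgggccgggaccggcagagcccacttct
Among the 25 genes, the TCACNCCAC letters stood only in the promoter of Hmgcs1, from position -137 relative to the start. They stood in 1.24% of 32851 mouse promoters of the same length. Sites that differ from these letters were not searched, so their absence does not show that a promoter lacks an SREBP site. CCAAT, on either strand, stood in the promoters of 20 of the 25 genes, which hold 34 promoters, 21 of them with the motif. It stood in 37.4% of all promoters and in at least 1 promoter of 41.1% of all genes. CACGTG stood in the promoters of 6 of the 25 genes (Abca1, Dhcr7, Hsd17b7, Insig1, Sc5d and Scap) and in 8.09% of all genes. The exact letters of DR4 were in none of the 25 and in 0.0152% of all promoters. So rare a pattern was unlikely to stand in any of the 25, and half-sites that differ from AGGTCA were not searched. Its absence therefore does not show that these promoters lack an LXR site. These matches are letters in a window and say nothing about binding. CCAAT was present in genes that rose, such as Sc4mol with 3 matches, and in Sc5d, which was not called.

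The depth was 38737746 to 43062684 mapped reads in the uninjured and 34202861 to 36129090 in the day 3 libraries. RPKM, the unit of the table, divides the reads of a transcript by its length in kb and by the library total, and 1 read in a transcript of 1 kb equalled 0.0232 to 0.0292 RPKM. The 32 genes had 56 to 18037 reads per library. The make-up of the RNA differed between the groups: mitochondrial sequences took 22.1% to 24.7% of the reads in uninjured and 4.77% to 6.62% in day 3 libraries. On the log2 scale of RPKM + 0.1 the median tested gene lay 1.35 higher at day 3. This median was 1.07 with mitochondrial sequences left out of the total, 0.94 scaled to the ERCC spike-ins, 0.06 by median of ratios, -0.07 by quantiles and -0.73 scaled to ribosomal protein genes, so each change is set below against that of all genes. A percentile is the share, in %, of tested genes with a smaller change.

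The cells of the tissue differed as well. All 12 macrophage markers rose, and their summed level went from 33.2 to 48.8 RPKM in uninjured to 4660 to 6473 RPKM in day 3 libraries. All 12 adult fast fibre markers, present at a sum of 51250 to 55127 RPKM in uninjured muscle, fell to 2197 to 9504 RPKM. Myoblast and new fibre markers (8 of 8 higher) went from 61.5 to 69.1 to between 824 and 1301 RPKM, and fibroblast markers (3 of 4 higher) from 151 to 228 to between 1494 and 1653 RPKM. Dividing cell markers (5 of 5 higher) went from 0.611 to 1.20 to between 162 and 195 RPKM. Adipocyte markers (1 of 7 tested higher) summed to 205 to 265 and 240.2 to 315 RPKM. Most of that sum was Fabp4, with means of 216 RPKM uninjured and 252 RPKM at day 3, so the sum says little about the other markers. Myelinating Schwann cell markers (4 of 8 higher) summed to 32.7 to 58.5 and 69.6 to 88.6 RPKM. None of the 57 markers was at the floor of the table in all 3 uninjured libraries. In bulk tissue, fewer cells of a type and less RNA per cell cannot be told apart, and the part of these cell types in the changes below was not tested.

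Most of the 32 genes stood higher at day 3, as did most genes of the table. Calls required a limma adjusted p below 0.05 together with a difference of 2-fold or more. 27 of the 32 genes were called higher, beside 60.5% of all tested genes, and 0 were called lower, beside 7.96% of all tested genes. In 28 genes every day 3 library lay above every uninjured library, which held for 78.5% of all tested genes. In 1 gene, Insig2, every day 3 library lay below, which held for 14.5%, and in the other 3 (Fdft1, Tm7sf2 and Sc5d) the groups overlapped. The median log2 change of the 32 was 1.80 beside 1.35 for all genes, with 22 above the median gene and 10 below it. With 1 transcript per gene, the summed level of the 32 genes was 129 ± 1.18 RPKM in uninjured and 553 ± 46.1 RPKM in day 3 libraries (SD, n = 3). This was a 4.30-fold difference. Its size differed between roles: 2.70-fold over the 18 synthesis enzymes and 3.33-fold over the SREBP genes. It was 4.57-fold over receptors and pumps and 9.48-fold over transport, storage and uptake. In this last sum, from 23.2 to 220 RPKM, Npc2 alone went from 8.25 to 140.5 RPKM. The median log2 changes were 1.89 for the enzymes and 1.35 for the SREBP genes. They were 2.64 for receptors and pumps and 1.98 for transport, storage and uptake. The place of the SREBP genes above the enzymes by summed level rests on the choice of transcripts. Insig2 has further transcripts in the table that are left out of these sums, and each of them was also lower at day 3.

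**Figure D1:**
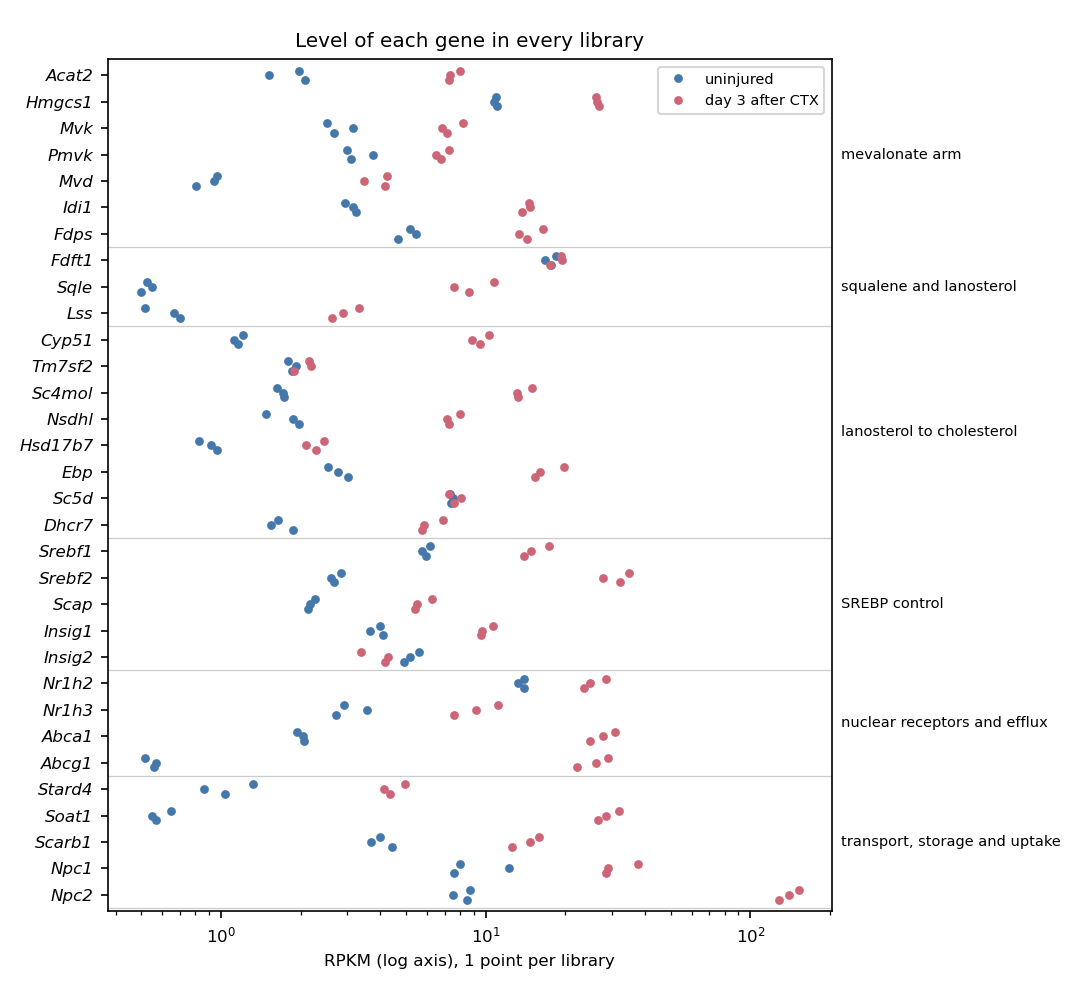
Level of each of the 32 genes (RPKM, log axis), 1 point per library, blue for the 3 uninjured and red for the 3 day 3 libraries, grouped by role. The points of the groups overlap in Fdft1, Tm7sf2 and Sc5d, lie in reverse order in Insig2 and are far apart in Soat1, Abcg1 and Npc2.

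The mevalonate arm runs from acetyl-CoA to farnesyl diphosphate. All 7 of its genes were called higher, beside 60.5% of all tested genes. Their log2 changes were 1.04 to 2.17 with a median of 1.51 beside 1.35 for all genes, and 2 of them lay below the median gene. Scaled to ribosomal protein genes 6 of them, all but Idi1, had negative values. So did Hmgcs1 and Pmvk by median of ratios and Mvk and Pmvk by quantiles. Idi1, which turns isopentenyl diphosphate into dimethylallyl diphosphate, rose most. Its levels were 3.23, 3.15 and 2.94 RPKM in the uninjured and 13.7, 14.7 and 14.6 RPKM in the day 3 libraries (log2 change 2.17, SE 0.07, limma adjusted p = 1.6e-07, percentile 71.3). The day 3 libraries lay close together, all above the uninjured ones. Hmgcs1, the synthase that makes HMG-CoA, had the highest RPKM of the arm in both groups with 1 transcript per gene; with the transcripts of Fdps summed, Fdps lay above it in day 3 replicate 3. It stood at 11.1, 10.8 and 10.9 RPKM uninjured and 26.8, 26.4 and 26.1 RPKM at day 3. This change of 1.27 (SE 0.05, limma adjusted p = 4.16e-07) was at percentile 47.5, a little under the median gene.

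In the other mevalonate genes every day 3 library lay above every uninjured one, as in 78.5% of all tested genes. Acat2, an acetyl-CoA acetyltransferase of the cytosol, went from 1.85 ± 0.299 to 7.53 ± 0.407 RPKM and Mvd, the mevalonate diphosphate decarboxylase, from 0.905 ± 0.0881 to 3.96 ± 0.413 RPKM (SD, n = 3), at percentiles 66.6 and 67.5. The kinases that phosphorylate mevalonate in sequence changed less. Mvk had 2.68, 3.15 and 2.51 RPKM uninjured and 7.12, 6.84 and 8.22 RPKM at day 3 (log2 change 1.38), and Pmvk 3.11, 3.74 and 3.0 and 6.77, 6.50 and 7.27 RPKM (log2 change 1.04). Pmvk thus lay close to the fold minimum: without uninjured replicate 3 its change was 0.98, and with either that library or day 3 replicate 3 left out it was just short of a call. Fdps, which makes farnesyl diphosphate, went from 5.10 ± 0.396 to 14.8 ± 1.61 RPKM at percentile 54.5. Reads of some of these genes could come from elsewhere. Windows of 50 bases were taken from the GENCODE M21 transcript matched to each gene, which can differ in length from the counted one. Of these, 82.0% for Fdps, 45.9% for Acat2, 30.5% for Idi1 and 13.6% for Hmgcs1 are also found in transcripts of other genes, on either strand. For Acat2 these are Acat3 and Tcp1. What such reads add to the levels was not tested.

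Next come the steps from farnesyl diphosphate to lanosterol, where neighbouring enzymes differed. Fdft1, the squalene synthase at the branch into sterols, had 17.6, 16.8 and 18.4 RPKM in uninjured and 17.5, 19.4 and 19.2 RPKM in day 3 libraries. The groups overlapped, and the log2 change of 0.09 (95% interval -0.08 to 0.25, limma adjusted p = 0.275) was at percentile 19.1. Sqle, the squalene epoxidase that acts next and is a known point of control of the pathway, had 0.499, 0.549 and 0.526 RPKM uninjured and 8.68, 7.62 and 10.7 RPKM at day 3. It rose 17.2-fold as a ratio of means (log2 change 3.85, SE 0.13, limma adjusted p = 2.01e-07, percentile 91.4), the largest change of the 18 enzymes. Sqle lies at chr15:59315077-59331192 (GRCm38, GENCODE M21). Lss, the lanosterol synthase that closes the rings, rose from 0.628 ± 0.0995 to 2.95 ± 0.357 RPKM, at percentile 69.0. The level of Fdft1 may have a limit. Of the windows of its matched GENCODE M21 transcript, 30.7% are shared, 19.9% with Ctsb on the opposite strand. Ctsb, a lysosomal protease gene, went from 56.9 to 1068 RPKM. The matched transcript gives 3649 windows, while the counted RefSeq transcript has 2864 bases. Whether the shared windows lie in the counted sequence was not tested. Whether the counting used strand is not given in the sources used here, and the part of Ctsb reads in Fdft1 was not tested.

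From lanosterol to cholesterol, 6 of 8 genes rose and 2 were not called, beside 60.5% of all tested genes called higher, with a median log2 change of 1.92 beside 1.35. The largest changes were in the enzymes that remove methyl groups from lanosterol. Cyp51, the lanosterol demethylase, had 1.16, 1.12 and 1.22 RPKM uninjured and 9.52, 8.91 and 10.3 RPKM at day 3, 8.22-fold apart as means. Sc4mol, the sterol methyl oxidase, had 1.73, 1.71 and 1.63 RPKM uninjured and 13.3, 13.1 and 14.9 RPKM at day 3, 8.15-fold apart. Their log2 changes were 2.93 (SE 0.09, limma adjusted p = 1.3e-07) and 2.95 (SE 0.08, limma adjusted p = 1.14e-07). Ebp, the sterol isomerase, followed with 3.03, 2.76 and 2.53 RPKM uninjured and 15.4, 16.0 and 19.8 RPKM at day 3, 6.16-fold apart. These 3 enzymes lay at percentiles 83.3, 83.5 and 78.8 of all genes, and no day 3 library of any of them came near the uninjured range.

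Nsdhl and Hsd17b7 take part in removing the methyl groups along with Sc4mol, but rose by less. Nsdhl went from 1.77 ± 0.259 to 7.48 ± 0.466 RPKM (percentile 67.9) and Hsd17b7 from 0.902 ± 0.0715 to 2.28 ± 0.173 RPKM (percentile 47.0; SD, n = 3). Dhcr7, the reductase that turns the vitamin D precursor 7-dehydrocholesterol into cholesterol, rose from 1.69 ± 0.169 to 6.16 ± 0.650 RPKM, at percentile 62.6. Scaled to ribosomal protein genes the values of all 3 were negative, and those of Hsd17b7 also by median of ratios and by quantiles.

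Sc5d and Tm7sf2 were the 2 genes not called. Sc5d, which sets the double bond that makes 7-dehydrocholesterol, had 7.42, 7.55 and 7.32 RPKM uninjured and 7.58, 8.05 and 7.27 RPKM at day 3 (log2 change 0.04, 95% interval -0.12 to 0.19, limma adjusted p = 0.604). Tm7sf2, a sterol reductase whose step can also be done by the lamin B receptor, had 1.85, 1.92 and 1.79 RPKM uninjured and 1.89, 2.19 and 2.15 RPKM at day 3 (log2 change 0.15, 95% interval -0.07 to 0.38, limma adjusted p = 0.155). Exons of Tm7sf2 and Vps51 overlap by 532 bases in GENCODE M21, but the GENCODE transcript matched to Tm7sf2 shares no window with another gene. The percentiles of Sc5d and Tm7sf2, 18.3 and 20.2, were close to that of Fdft1. All 3 had negative values under each of the other 5 scalings, from -0.13 for Tm7sf2 without mitochondrial sequences to -2.10 for Sc5d scaled to ribosomal protein genes.

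**Figure D2:**
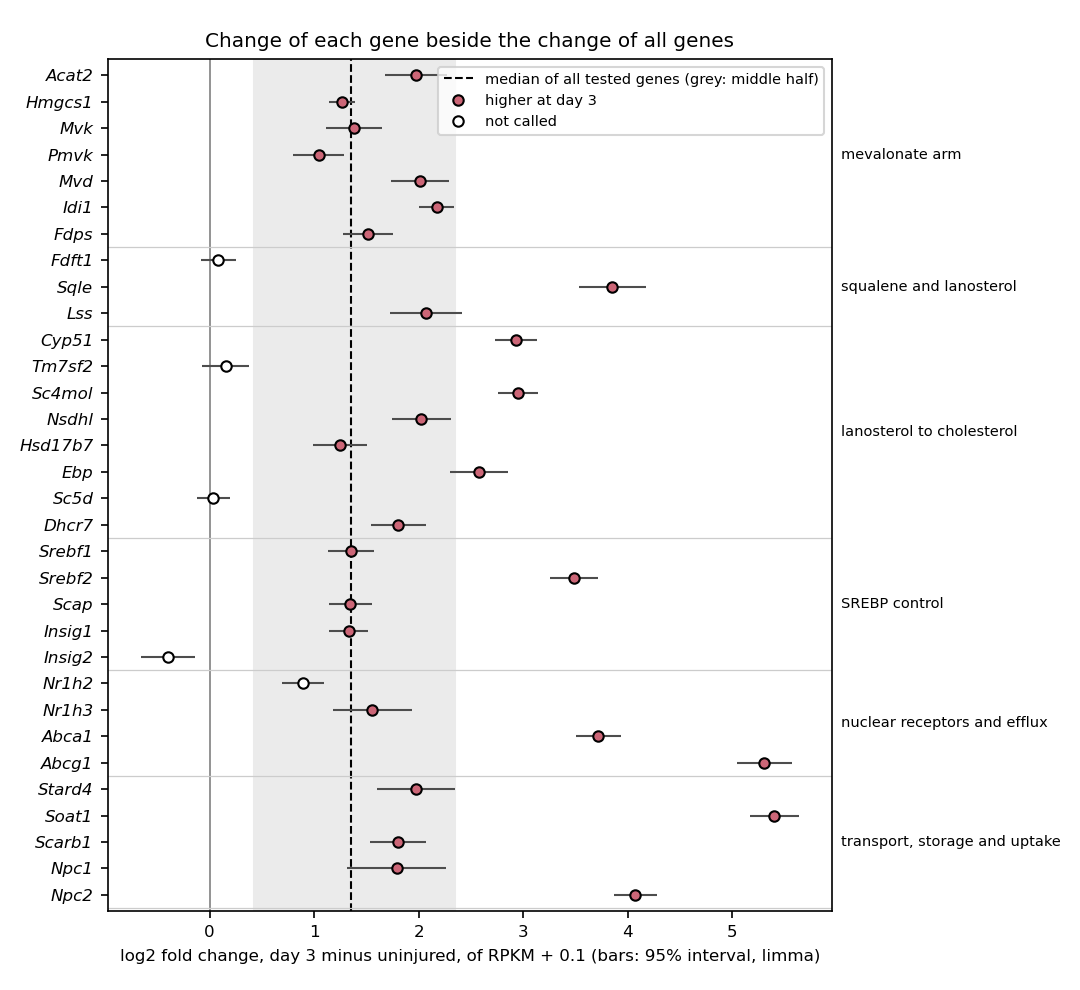
Log2 change (day 3 minus uninjured, of RPKM + 0.1) of each gene, with its 95% interval from limma. The dashed line is the median of all tested genes at 1.35 and the grey band runs from their lower quartile of 0.42 to their upper quartile of 2.35. Red points are called higher, white ones are not called, and 22 of 32 genes lie to the right of the line.

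The make-up of the synthesis pathway within a library is free of any scaling that multiplies all its genes alike. The summed level of the 18 enzymes was 66.0 ± 0.528 RPKM in uninjured and 178 ± 10.5 RPKM in day 3 libraries (SD, n = 3). Fdft1 held 26.7% ± 1.38 to 10.5% ± 0.682 of this sum from uninjured to day 3 (mean ± SD, n = 3), and Sc5d 11.3% ± 0.131 to 4.31% ± 0.438. The share of Sqle went from 0.795% ± 0.0405 to 5.04% ± 0.603, that of Sc4mol from 2.56% ± 0.0630 to 7.73% ± 0.123 and that of Cyp51 from 1.77% ± 0.0828 to 5.39% ± 0.179. In each of these 5 enzymes the shares of the groups did not overlap. Hmgcs1 took 16.5% ± 0.229 to 14.9% ± 1.01, which was above Fdft1 at day 3. Hsd17b7 (1.37% ± 0.0977 to 1.28% ± 0.0568) and Mvk (4.21% ± 0.485 to 4.15% ± 0.172) had shares that differed by less than the spread between libraries.

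**Figure D3:**
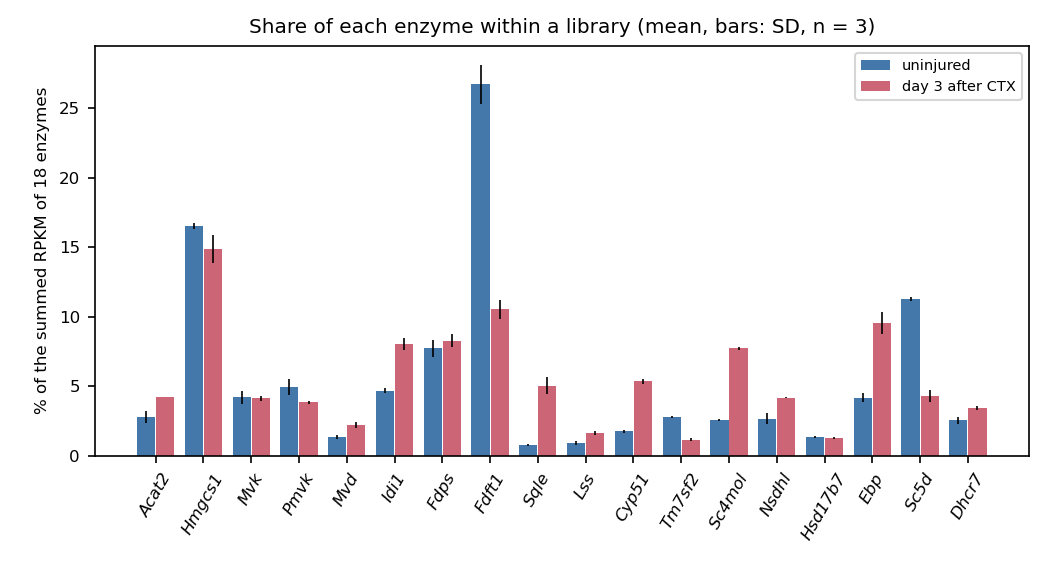
Share (%) of each enzyme in the summed RPKM of the 18 synthesis enzymes, computed within each library; bars are means of 3 libraries per group and black lines are the SD. Fdft1 goes from 26.7% to 10.5% and Sc5d from 11.3% to 4.31%, while Sqle, Sc4mol, Cyp51, Ebp and Idi1 hold larger shares at day 3.

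Of the genes that control synthesis, Srebf2 stood apart. Lying at chr15:82147181-82205379 (GRCm38), it encodes SREBP-2, the transcription factor that mainly drives cholesterol genes, and had 2.68, 2.61 and 2.85 RPKM uninjured and 32.1, 27.6 and 34.7 RPKM at day 3. It rose 11.6-fold as a ratio of means (log2 change 3.48, SE 0.10, limma adjusted p = 1.16e-07, percentile 88.7). Srebf1, which encodes the forms that mainly drive fatty acid genes, had 5.95, 5.75 and 6.15 RPKM uninjured and 13.98, 14.9 and 17.4 RPKM at day 3. Its change of 1.36 (limma adjusted p = 4.39e-06) was that of the median gene, at percentile 50.1. Scap, the escort of the SREBPs, and Insig1, which retains them, also rose by about as much as the median gene. They went from 2.19 ± 0.0718 to 5.74 ± 0.478 RPKM and from 3.91 ± 0.212 to 9.99 ± 0.578 RPKM (SD, n = 3), at percentiles 49.9 and 49.4; scaled to ribosomal protein genes these 2 and Srebf1 had negative values, and by quantiles Scap and Insig1 did.

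Insig2, the second retention protein, was the only gene of the 32 with all day 3 libraries under all uninjured ones. Lying at chr1:121304353-121332589 (GRCm38), it had 4.90, 5.16 and 5.59 RPKM uninjured and 4.18, 4.28 and 3.40 RPKM at day 3. Its log2 change of -0.40 (95% interval -0.66 to -0.14, limma adjusted p = 0.00959) was too small for a call, at percentile 12.9. Its level was lower at day 3 under all 6 scalings, at -0.82 scaled to ERCC and -1.71 by median of ratios, and it was called lower by median of ratios, by quantiles and by ribosomal protein genes.

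Receptors and pumps came next. Nr1h2, which encodes LXR beta and is found in most cells, had 13.9, 13.3 and 13.9 RPKM uninjured and 23.5, 24.7 and 28.6 RPKM at day 3; its change of 0.89 (SE 0.08, limma adjusted p = 2.83e-05) was under 2-fold and at percentile 36.5. Nr1h3, which encodes LXR alpha of liver, fat and macrophages, had 2.73, 3.58 and 2.92 RPKM uninjured and 7.59, 9.20 and 11.1 RPKM at day 3 and rose by 1.56 (SE 0.16, limma adjusted p = 4.43e-05). Every day 3 library lay above every uninjured one in both receptors, as in 78.5% of all tested genes. Both had negative values scaled to ribosomal protein genes, and Nr1h2 also by median of ratios and by quantiles.

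The pumps that LXR is known to switch on had larger log2 changes than the receptors. Abca1, which loads cholesterol onto lipid-poor apolipoprotein, had 2.07, 2.03 and 1.93 RPKM uninjured and 24.8, 27.8 and 30.8 RPKM at day 3, 13.8-fold apart (log2 change 3.72, SE 0.09, limma adjusted p = 9.74e-08, percentile 90.4). Abcg1, which exports cholesterol to mature HDL, had 0.559, 0.567 and 0.519 RPKM uninjured and 22.1, 26.1 and 28.9 RPKM at day 3, 46.9-fold apart (log2 change 5.31, SE 0.11, limma adjusted p = 8.23e-08, percentile 97.5). Abca1 lies at chr4:53030787-53159895 and Abcg1 at chr17:31057675-31117988 (GRCm38). In uninjured muscle Abcg1 was among the least abundant of the 32 genes, and at day 3 it stood at the level of Abca1.

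All 5 genes of transport, storage and uptake were called higher, beside 60.5% of all tested genes, with a median log2 change of 1.98 beside 1.35. Stard4, Scarb1 and Npc1 had negative values when scaled to ribosomal protein genes. Soat1, which esterifies cholesterol for storage in droplets, had 0.568, 0.550 and 0.647 RPKM uninjured and 26.7, 28.5 and 31.9 RPKM at day 3. This 49.3-fold difference of means was the largest of the 32 genes (log2 change 5.40, SE 0.10, limma adjusted p = 8.23e-08, percentile 97.7). Npc2, the soluble lysosomal protein that hands cholesterol to NPC1, had 8.50, 7.56 and 8.69 RPKM uninjured and 129, 140.4 and 152 RPKM at day 3. Soat1 lies at chr1:156424525-156474331 and Npc2 at chr12:84754562-84773152 (GRCm38). Npc2 rose 17.0-fold (log2 change 4.07, SE 0.09, limma adjusted p = 8.23e-08, percentile 92.7) and was the most abundant of the 32 genes at day 3.

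Npc1, the membrane protein that takes cholesterol out of the lysosome, had 7.57, 12.2 and 7.97 RPKM uninjured and 28.5, 29.1 and 37.5 RPKM at day 3. Uninjured replicate 2 stood above the other uninjured libraries but far under every day 3 library, and the log2 change of 1.79 (SE 0.20, limma adjusted p = 7.03e-05) was 2.00 without it. Scarb1, the HDL receptor that takes up cholesteryl ester and also lets cholesterol out, had 4.45, 3.69 and 4.0 RPKM uninjured and 12.5, 14.7 and 15.9 RPKM at day 3 (percentile 62.4). Stard4, a soluble carrier of sterol between membranes, went from 1.07 ± 0.232 to 4.47 ± 0.435 RPKM (SD, n = 3; percentile 66.6). By RPKM of 1 transcript per gene, the most abundant of the 32 genes at day 3 were Npc2, Npc1, Srebf2, Soat1 and Abca1, whereas in uninjured muscle they were Fdft1, Nr1h2 and Hmgcs1. With transcripts summed, Insig2 lay above Fdft1 in every uninjured library, and Scarb1 above Npc1, Soat1 and Abca1 in every day 3 library. Of the windows of the GENCODE transcript matched to Npc1, 8.95% are shared with other genes.

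The scaling of the libraries decided most of these calls. Scaled to the total without mitochondrial sequences, 24 of the 32 genes were called higher, beside 51.9% of all genes, and 0 lower, beside 10.2%. Scaled to the ERCC spike-ins, 20 were called higher, beside 48.1%, and 0 lower, beside 11.1%. By median of ratios, which centres the median gene, 9 were called higher, beside 26.3%, and 4 lower, beside 22.5%: Fdft1, Tm7sf2, Sc5d and Insig2. By quantiles 9 were higher, beside 24.0%, and 3 lower (Tm7sf2, Sc5d and Insig2), beside 24.7%. Scaled to ribosomal protein genes 6 were higher, beside 16.0%, and 6 lower, beside 42.1%: the same 4 as by median of ratios, with Pmvk and Nr1h2. The 6 genes called higher under all 6 scalings were Abca1, Abcg1, Npc2, Soat1, Sqle and Srebf2. Cyp51, Sc4mol and Ebp were called under all but the ribosomal one. ERCC spike-ins took 1.06% to 1.20% of the reads in uninjured and 1.44% to 1.64% in day 3 libraries.

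**Figure D4:**
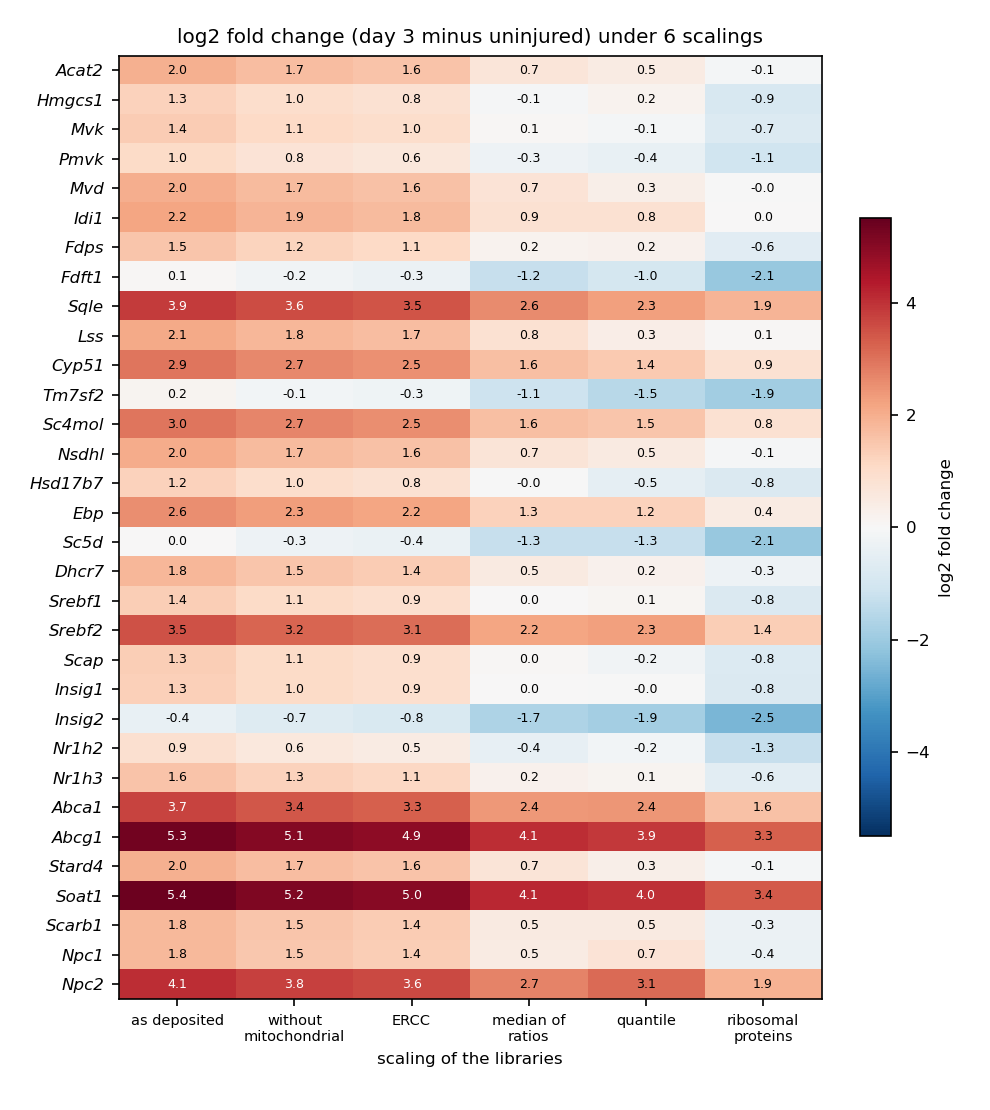
Log2 change (colour and printed value, day 3 minus uninjured) of each of the 32 genes under 6 scalings of the libraries, from the table as deposited on the left to ribosomal protein genes on the right. Soat1 and Abcg1 stay over 3 in every column, Sqle, Srebf2, Abca1 and Npc2 over 1, and Fdft1, Tm7sf2 and Sc5d go from near 0 to about -2.

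Ratios of gene pairs within a library, 8 in all, do not move with a scaling that multiplies all genes of the library alike. The tests used RPKM + 0.1, which does move with the scaling where a gene is low. With 3 libraries against 3 the two-sided exact permutation test cannot give a p under 0.1. Of the 8 ratios 7 reached that smallest p, which was 0.114 after adjustment over the 8. Srebf1 stood 2.16 to 2.22 times as high as Srebf2 in uninjured muscle and 0.436 to 0.539 times as high at day 3. Abca1 stood 3.59 to 3.73 times as high as Abcg1 in uninjured muscle and 1.07 to 1.12 times at day 3. Abca1 to Hmgcs1, a pump against a synthesis enzyme, went from 0.177 to 0.189 in uninjured to 0.927 to 1.18 in day 3 libraries.

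The ratio of Npc2 to Npc1 went from between 0.619 and 1.12 to between 4.06 and 4.83, and that of Nr1h3 to Nr1h2 from between 0.196 and 0.269 to between 0.323 and 0.389. Insig1 to Insig2 went from between 0.712 and 0.832 to between 2.26 and 3.14, and Soat1 to Scarb1 from between 0.128 and 0.162 to between 1.94 and 2.13. For both pairs the order of the genes depends on the transcripts taken, since Insig2 has 4 in the table and Scarb1 3. With transcripts summed, Insig1 to Insig2 was at most 0.866 and Soat1 to Scarb1 at most 0.849 at day 3, so that the second gene stayed ahead, while the change between the groups kept its direction. The ratio of Abca1 to Sqle differed least, at 3.68 to 4.15 in uninjured and 2.86 to 3.65 in day 3 libraries. These ranges, taken without a pseudocount, did not overlap. With the pseudocount of 0.1 the log2 difference of this ratio was -0.13 (exact permutation p = 0.3, adjusted 0.3), and with a pseudocount of 1 it was 0.55.

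**Figure D5:**
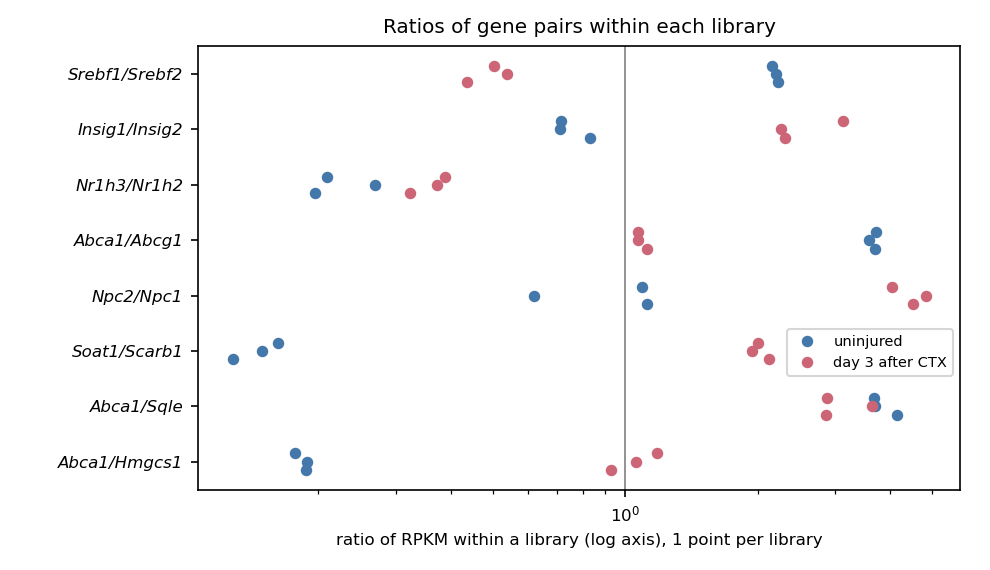
Ratio of the RPKM of gene pairs within each library (log axis), 1 point per library, blue for uninjured and red for day 3; the vertical line marks equal levels. Srebf1/Srebf2 crosses the line from above 2 to about 0.5, and Abca1/Abcg1 comes down to near 1 at day 3.

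The day 3 libraries differed among themselves. Replicate 3 was the highest of the 3 in 26 of the 32 genes, beside 7011 of all 14446 tested genes, and lay a median of 0.21 on the log2 scale above the mean of the other 2, beside 0.06 over all tested genes. In the same library all 12 macrophage markers were highest, by a median of 0.39, and none of the 12 adult fast fibre markers was, with a median of -2.09; their part in the higher levels of the 26 genes there was not tested. Insig2, Sc5d and Hmgcs1 lay lower in replicate 3 than the mean of the other day 3 libraries, with a difference of -0.31 on the log2 scale for Insig2. Without replicate 3 of day 3, 26 of the 32 genes were called higher, and Pmvk was the gene lost.

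Other genes of the pathway were taken from a list of 65, of which 61 were tested: 42 were called higher, 5 lower and 14 not called, beside 60.5% higher and 7.96% lower over all tested genes, with a median log2 change of 1.92 beside 1.35. Among those of precursor supply and the remaining sterol and isoprenoid steps, 6 of 8 rose, beside 60.5% of all tested genes. The largest change of them was in 0610007P14Rik, the mouse counterpart of yeast ERG28, which tethers sterol enzymes, with 1.35, 1.19 and 1.50 RPKM uninjured and 16.5, 17.3 and 18.9 RPKM at day 3 (log2 change 3.62, limma adjusted p = 1.24e-07). Acss2, which makes acetyl-CoA from acetate, fell by 1.25 on the log2 scale, from 9.91 ± 0.438 to 4.20 ± 1.09 RPKM. Acat1, the mitochondrial relative of Acat2 and the most abundant of these genes, stood at 54.7 ± 3.28 and 32.2 ± 2.00 RPKM (log2 change -0.76, under 2-fold).

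In SREBP processing and sterol sensing, 3 of 6 genes rose, beside 60.5% of all tested genes, and none fell. Erlin1 and Erlin2, which form a complex that takes part in the degradation of sterol-regulated proteins in the endoplasmic reticulum, rose by 2.78 and 2.38 (limma adjusted p = 5.13e-07 and 1.2e-07). Of 11 fatty acid genes known as targets of SREBP-1 or LXR, 9 rose and 2 fell, beside 60.5% and 7.96% of all tested genes. Scd2, a fatty acid desaturase, went from 4.09 ± 0.497 to 55.1 ± 0.899 RPKM (log2 change 3.73) and Elovl6, an elongase, from 0.266 ± 0.0492 to 3.53 ± 0.205 RPKM (log2 change 3.32). Mlxipl, the carbohydrate-sensing transcription factor ChREBP, fell from 24.1 ± 0.774 to 3.21 ± 2.58 RPKM, and Me1, the malic enzyme that supplies NADPH, fell from 32.5 ± 1.70 to 7.34 ± 1.98 RPKM. Both that fell were lowest in day 3 replicate 3, at 0.743 RPKM for Mlxipl and 5.16 RPKM for Me1.

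Of 10 tested genes of lipoprotein and lipid uptake, 8 rose and 1 fell, beside the same 60.5% and 7.96%. Msr1, a scavenger receptor of macrophages, had 0.102, 0.105 and 0.142 RPKM uninjured and 17.8, 18.4 and 23.2 RPKM at day 3 (log2 change 6.52), and Lrp1, a large endocytic receptor, went from 4.33 ± 0.320 to 73.2 ± 15.5 RPKM. Vldlr, the receptor for triglyceride-rich particles in muscle and fat, fell from 14.9 ± 0.593 to 2.03 ± 0.983 RPKM (log2 change -2.94, limma adjusted p = 9.82e-05). In lysosomal and membrane sterol transport 6 of 9 rose, beside 60.5% of all tested genes, and none fell. Lipa, the acid lipase that frees cholesterol from its esters upstream of the NPC proteins, had 1.67, 1.52 and 1.29 RPKM uninjured and 36.5, 43.1 and 53.4 RPKM at day 3 (log2 change 4.79), and Stard5, a sterol carrier, rose by 3.35. Scarb2, a lysosomal membrane protein, was the most abundant of them with a change of 0.74, under 2-fold.

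Among efflux partners and lipoproteins, 5 of 8 tested genes rose, beside 60.5% of all tested genes, and none fell. Apoc2, the cofactor of lipoprotein lipase, was at or near the floor of the table in uninjured muscle and at 21.4, 20.8 and 29.6 RPKM at day 3. Among the genes of oxysterols and receptor partners, 5 of 9 rose and 1 fell, beside 60.5% and 7.96%. Ch25h, which makes 25-hydroxycholesterol, and Cyp46a1, which makes 24-hydroxycholesterol, rose by 3.38 and 2.89 from levels under 0.3 RPKM. Cyp27a1, which makes 27-hydroxycholesterol, was the most abundant of them and stood at 24.1 ± 6.05 RPKM uninjured and 21.6 ± 2.59 RPKM at day 3 (log2 change -0.14). Rxrg, the partner receptor typical of muscle, fell from 10.3 ± 1.02 to 2.14 ± 0.953 RPKM. These calls hold for the values as deposited. By median of ratios, 38 of the 61 tested genes had a positive log2 change and 23 a negative one. The median of all tested genes under this scaling was 0.06. Of the 42 called higher as deposited, 38 had a positive value. A positive value asks less than a call, and calls under this scaling were not counted for these 61 genes.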

How the data were processed

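RNA from the TA muscle of 3 uninjured and 3 day 3 mice was sequenced as single reads of 50 nt, each library from 1 µg of total RNA. The authors aligned reads with BWA to mouse RefSeq transcripts; the deposited values are RPKM for each transcript and library. The submitters' processing notes also name CASAVA 1.4 and SAMtools 0.1.19. Strandedness and the handling of reads that match several transcripts are not given in the sources used here. Multiplied by length and library total, 100% of the deposited values above the floor of 0.01 RPKM came to whole reads within 0.01 read.

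Groups follow the labels, and nothing beyond 1 library per mouse is stated of how the replicates were made. Of 34302 sequences, 34206 name a gene; spike-ins and contaminant sequences stayed out of the tests. Each gene is represented by its transcript with the highest mean RPKM (7 of the 32 members have several). Genes whose mean RPKM reached 0.5 were tested with limma 3.58.1 (lmFit, eBayes with trend; R 4.3.3) on log2(RPKM + 0.1), which understates the change of low genes, with Benjamini-Hochberg adjustment over the 14446 genes. A call needed an adjusted p under 0.05 and at least 2-fold. limma was tested on simulated data. Ratios were compared by exact permutation (SciPy 1.17.1). Windows of 50 bases came from the longest GENCODE M21 transcript linked to the counted RefSeq transcript of each member. The 2 can differ in length. The windows were matched to the GENCODE M21 transcripts of other genes. Promoters come from RefSeq. Python 3.11.15, pandas 2.3.3, NumPy 2.4.6 and matplotlib 3.10.9 were used.

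All members were named. Of the other pathway genes, up to 2 with the largest called rise, up to 2 with the largest called fall and the most abundant of each list were to be named; 3 of these picks are counted but not reported here. Members, lists and rules were chosen with earlier results of these data known. Alternatives varied the pseudocount, filter, scaling, limma options (without trend and robust, or voom on recovered reads), transcripts (summed), replicate block and libraries left out.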

Additional observations from a re-analysis of the deposited data

How the results depend on the processing

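The 27 members called higher stayed 27 with a pseudocount of 0.01, no filter, limma without trend and robust, voom on recovered reads and transcripts summed. They were 25 with a pseudocount of 1 and 25 of 29 tested when the mean RPKM had to reach 2, and 26 to 27 when 1 library was left out. No member was called lower in any of these. Over all genes, leaving out 1 library gave 8694 to 8789 higher and 1058 to 1199 lower.

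Scaling moved the counts. Median of ratios called 9 members higher and 4 lower (all genes: 3801 and 3254), quantiles 9 and 3 (3460 and 3561), ribosomal protein genes 6 and 6 (2309 and 6075). These log2 changes turned negative. With ERCC: Fdft1 -0.34, Tm7sf2 -0.25, Sc5d -0.39. Without mitochondrial sequences: Fdft1 -0.21, Tm7sf2 -0.13, Sc5d -0.26. By median of ratios: Hmgcs1 -0.069, Pmvk -0.27, Fdft1 -1.25, Tm7sf2 -1.12, Hsd17b7 -0.004, Sc5d -1.29, Nr1h2 -0.44. By quantiles: Mvk -0.09, Pmvk -0.42, Fdft1 -0.97, Tm7sf2 -1.52, Hsd17b7 -0.48, Sc5d -1.29, Scap -0.20, Insig1 -0.039, Nr1h2 -0.16. With ribosomal protein genes: Acat2 -0.13, Hmgcs1 -0.89, Mvk -0.74, Pmvk -1.08, Mvd -0.035, Fdps -0.63, Fdft1 -2.07, Tm7sf2 -1.92, Nsdhl -0.076, Hsd17b7 -0.78, Sc5d -2.10, Dhcr7 -0.29, Srebf1 -0.79, Scap -0.76, Insig1 -0.80, Nr1h2 -1.26, Nr1h3 -0.57, Stard4 -0.087, Scarb1 -0.33, Npc1 -0.36. The scalings differ by construction, in which sequences they hold level between the groups, and which of them matches the RNA per cell was not tested. With 1 library left out, Sc5d lay between -0.001 (without day 3 replicate 2) and 0.071. The log2 difference of the ratio of Abca1 to Sqle was 0.55 with a pseudocount of 1.

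Deviations from the group means correlated at -0.059, 0.092 and 0.018 between same-numbered libraries, and at -0.075 to 0.070 between the others. With 3 libraries per group these values cannot show whether the replicate numbers pair the mice. With a replicate block, 27 members were called higher, and 8743 genes higher and 1149 lower. Two-sided exact tests of 3 against 3 libraries cannot go under p = 0.1, so the ratios rest on their ranges. Lss, Mvd, Hsd17b7, Sqle, Abcg1 and Soat1 had under 1 RPKM in uninjured muscle, where the pseudocount of 0.1 understates their log2 change. Uninjured reads per library were fewest in Sqle (56 to 59), Mvd (61 to 66) and Lss (62 to 94), while Hsd17b7 had 146 to 190.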
